A study of Homo sapiens with 132 samples.

Results

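CYR61 and CTGF, also named CCN1 and CCN2, are the most used readouts of the transcriptional co-activator YAP, and they were examined here together with ANKRD1, AMOTL1, AMOTL2, AJUBA and LATS2, which are further target genes or regulators of the same pathway, and with YAP1 and WWTR1, the genes of YAP itself and of its paralog TAZ. The 9 genes were chosen by name, matched by Ensembl identifier among the 65217 identifiers of the count files, and all 9 passed the filter on low counts in each cell line. RNA sequencing libraries of the 4 established gastric cancer cell lines MKN1, Hs746T, MKN7 and NCI-N87 were used, with 3 replicates of each of 44 conditions. MKN1 and Hs746T cells were left untreated or received EGF (5 ng/ml), cetuximab (1 µg/ml), EGF + cetuximab, trastuzumab (5 µg/ml), afatinib (0.5 µM) or trastuzumab + afatinib. The other lines, MKN7 and NCI-N87, received trastuzumab, afatinib, their combination or no agent. Each treatment lasted 4 h or 24 h, and each had untreated cells of the same line and time as its control. Untreated cells received no solvent, so afatinib and its solvent cannot be told apart here. Per the study's methods, the medium of all dishes was changed 2 h before treatment, and per the labels all cells grew with serum, Hs746T cells in DMEM and the other lines in RPMI. EGF is a growth factor that activates the receptor EGFR, cetuximab is an antibody against EGFR, trastuzumab is an antibody against HER2, and afatinib is an irreversible inhibitor of the HER-family kinases. The labels number the replicates without saying whether they came from separate cultures, so p-values measure the spread between these libraries, which may be technical.

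In the Hippo pathway, the kinases MST1 and MST2 activate LATS1 and LATS2, which phosphorylate YAP and TAZ and keep them out of the nucleus. Unphosphorylated YAP and TAZ enter the nucleus, bind the TEAD factors and switch on target genes. Several of these targets act back on the pathway, since LATS2 is a Hippo kinase, the angiomotin-like proteins AMOTL1 and AMOTL2 hold YAP in the cytoplasm, and the LIM protein AJUBA inhibits LATS kinases. CYR61 and CTGF are secreted proteins of the matrix that bind integrins, and both are also immediate early genes that respond to serum and growth factors. ANKRD1 encodes an ankyrin repeat protein of the nucleus and the sarcomere that is induced by YAP. An RNA level of these genes is not a measurement of the location or activity of YAP.

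In annotation GENCODE 29 on GRCh38, CYR61 lies at chr1:85580761-85583962 on the plus strand and CTGF at chr6:131948176-131951373 on the minus strand. ANKRD1 lies at chr10:90912096-90921276, also on the minus strand. Promoter windows of RefSeq (GRCh38.p14), taken as the 250 bases before a start site, were found for 8 of the 9 members, 11 windows in all. The sequences of CTGF and ANKRD1 are shown because they hold more than 1 copy of GGAATG, the core of the TEAD binding motif, within 250 bases. Capitals mark GGAATG, which was searched on both strands. The CTGF sequence is chr6:131951374-131951622 on the minus strand, bases -250 to -2 before the RefSeq start. The ANKRD1 sequence is chr10:90921277-90921337 on the minus strand, bases -250 to -190, and ends where an annotated exon begins.
CTGF: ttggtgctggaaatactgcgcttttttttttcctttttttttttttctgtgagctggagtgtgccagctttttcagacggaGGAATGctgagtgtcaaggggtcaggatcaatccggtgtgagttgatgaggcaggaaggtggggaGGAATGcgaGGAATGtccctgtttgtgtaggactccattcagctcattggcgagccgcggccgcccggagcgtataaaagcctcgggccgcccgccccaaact
ANKRD1: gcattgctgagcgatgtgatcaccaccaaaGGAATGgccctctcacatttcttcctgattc
CTGF holds 3 copies of GGAATG, at bases -169 to -164, -104 to -99 and -95 to -90. ANKRD1 holds 2 copies, of which the one at -220 to -215 is printed and the one at -128 to -123 lies in the unprinted stretch, and it holds a match to the AP-1 motif TGANTCA at -195 to -189. Of 35116 promoter windows, 11.9% hold at least 1 copy of GGAATG, 0.94% at least 2 and 0.0826% at least 3. A single copy was found in the windows of AMOTL2, AJUBA and YAP1, and 5 of the 8 members had at least 1 copy. TGANTCA was found in 6.57% of all windows, the CRE core TGACGTCA in 1.65% and the CArG box in 1.16%, and neither of the latter was found in a member's window. These matches describe letters and are not binding sites.

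Total counts ran from 25832557 to 69434151 a library (median 50725776). A level of 3 counts corresponded to 0.0432 CPM in the deepest and 0.116 CPM in the shallowest library, a limit that covers counting error only. Levels are given as CPM, a gene's count relative to the library's total after edgeR's TMM scaling. The labelled cell type was checked against markers. The cadherin gene CDH1, a defining epithelial marker, had a median of 0.785 CPM in Hs746T and of 2.0 CPM in MKN1 cells, against 243 CPM in MKN7 and 256 CPM in NCI-N87 cells. All 6 epithelial markers had a median of at least 1 CPM in the other lines and 5 of 6 in Hs746T cells, whose keratins were also low (KRT19 26.4 CPM against 4166 CPM in MKN1 cells). The mesenchymal marker VIM had a median of 1595 CPM in Hs746T and 559 CPM in MKN1 cells, against 3.74 CPM in MKN7 and 4.17 CPM in NCI-N87 cells. ZEB1 split alike (57.2 and 34.9 against 2.68 and 8.28 CPM), but other markers did not. FN1 had 677 CPM in MKN1 and 624 CPM in MKN7 cells. CDH2 had 0.399 CPM in MKN1 cells, and SPARC 1193 CPM there and 351 CPM in Hs746T cells. The epithelial marker CLDN4 had 308 CPM in Hs746T, 7.44 CPM in MKN1 and 159 CPM in MKN7 cells. EPCAM had 35.5 CPM in Hs746T and 25.1 CPM in MKN1 cells. The medians of the 4 leukocyte markers summed to between 0.215 and 4.41 CPM in all lines, and the endothelial gene PECAM1 stood at 155 CPM in Hs746T cells with the other 2 endothelial markers below 1 CPM. In Hs746T cells replicate 1 stood apart from replicates 2 and 3 in CYR61, CTGF, ANKRD1, AMOTL2 and AJUBA in each of 14 conditions, and results that rest on it are given with and without it or by replicate number.

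In untreated cells, CYR61 had the highest level per length of the 9 genes in Hs746T, MKN1 and MKN7 cells, and in NCI-N87 cells it came after YAP1, at 22.3 CPM per kilobase (CYR61 CPM per kilobase of exon: 127 in Hs746T, 111 in MKN1, 83 in MKN7 and 20.2 in NCI-N87 cells, means of 6 libraries). CYR61 averaged 312 ± 137 CPM (SD, n = 6, both time points) in Hs746T, 273 ± 87 in MKN1, 204 ± 16.9 in MKN7 and 49.5 ± 11.6 in NCI-N87 cells. The libraries of the first 3 lines overlapped, and all 6 NCI-N87 libraries lay below them. CTGF followed another order, with 82.8 ± 19.1 CPM in MKN1, 59.1 ± 31.8 in Hs746T, 36 ± 8.63 in NCI-N87 and 6.49 ± 1.58 in MKN7 cells. Neighbouring lines overlapped down to NCI-N87, and MKN7 stood apart below all of them. Against untreated MKN1 cells, CYR61 in MKN7 cells differed by -0.77 ± 0.27 at 4 h (edgeR, adjusted p = 0.0117) and by 0.02 ± 0.27 at 24 h (0.953), while CTGF differed by -3.67 ± 0.43 (log2FC ± SE) at 4 h and by -3.69 ± 0.43 at 24 h (adjusted p = 1.15e-12 and 8.9e-13). Such calls were common: 62.2% and 64.5% of all genes passed the test (adjusted p below 0.05) between these 2 lines at 4 h and 24 h. ANKRD1 was highest in MKN7 cells (28.5 ± 3.01 CPM, no overlap with the next line), followed by NCI-N87 (14.9 ± 3.38), MKN1 (12.6 ± 3.21) and Hs746T cells (7.77 ± 4.86), which overlapped as neighbours.

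**Figure D1:**
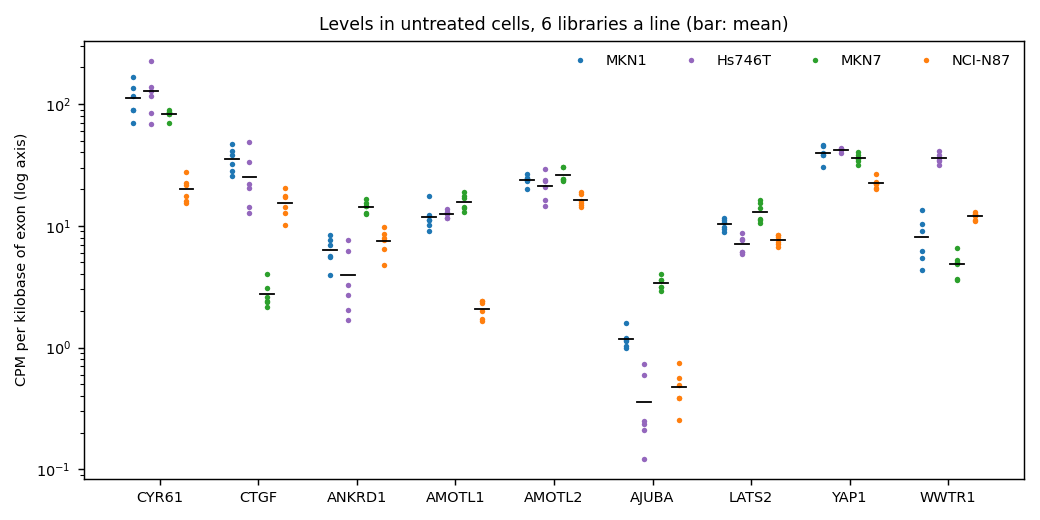
Levels of the 9 genes in untreated cells as CPM per kilobase of exon on a log axis, with 6 libraries a line (both time points) as points and their mean as a bar. NCI-N87 libraries lay lowest for CYR61, AMOTL1 and YAP1, MKN7 libraries lowest for CTGF, and Hs746T libraries highest for WWTR1.

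The co-activators differed between lines as well. YAP1 averaged 266 ± 8.24 CPM in Hs746T, 250 ± 35.2 in MKN1, 227 ± 18.8 in MKN7 and 141 ± 14.6 in NCI-N87 cells, where every library lay below those of the other lines. WWTR1 was highest in Hs746T cells (302 ± 29.2 CPM), above all libraries of NCI-N87 (101 ± 6.25), MKN1 (68.7 ± 29.4) and MKN7 cells (40.7 ± 9.48), and the last 3 overlapped as neighbours. Against untreated MKN1 cells WWTR1 was higher in Hs746T cells by 1.63 ± 0.14 at 4 h and 2.83 ± 0.14 at 24 h (log2FC ± SE), with WWTR1 itself lower at 24 h than at 4 h in untreated MKN1 cells. The scaffold gene AMOTL1 stood at 158 ± 23.6 CPM in MKN7, 126 ± 8.02 in Hs746T, 119 ± 29.6 in MKN1 and 21 ± 3.56 in NCI-N87 cells, and NCI-N87 was again apart below the overlapping others (log2FC against MKN1 -2.39 ± 0.16 and -2.60 ± 0.16). AMOTL2 varied least, from 97.6 ± 11.7 CPM in NCI-N87 to 156 ± 20.5 in MKN7 cells, with overlap between neighbours throughout. LATS2 ranged from 39.2 ± 6.45 CPM in Hs746T to 73 ± 13.3 in MKN7 cells. AJUBA was highest in MKN7 cells (20.3 ± 2.41 CPM), then in MKN1 cells (7.08 ± 1.31), each apart from the next line, and NCI-N87 (2.82 ± 1.02) and Hs746T cells (2.14 ± 1.46) overlapped. AJUBA shares exons in sense with the protein-coding gene AL132780.3, whose counts came to 96.4% of those of AJUBA, so its values are uncertain. Of the other overlapping genes, none held more than 1.33% of a member's counts. Over 9 genes and 6 comparisons with untreated MKN1 cells, 37 of 54 tests passed, while 67% and 68% of all genes passed for NCI-N87 and 68.7% and 68.6% for Hs746T cells at 4 h and 24 h, so the share of members is near that of all genes. Without replicate 1, CTGF was also called in Hs746T cells (-0.65, adjusted p = 0.045 at 4 h, and -1.12, 0.000768 at 24 h). In bulk samples, fewer cells of a type and less RNA of a gene per cell cannot be told apart.

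In MKN1 cells CYR61 and CTGF fell with cetuximab and with afatinib at both time points, and ANKRD1 fell with afatinib. At 4 h, CYR61 had 406, 334 and 288 CPM in replicates 1 to 3 of untreated cells, 192, 230 and 116 CPM with cetuximab, and 157, 174 and 98 CPM with afatinib. All treated libraries lay below all untreated libraries, and replicate 3 was the lowest in each group. The log2FC was -0.94 ± 0.24 (SE) with cetuximab (edgeR, adjusted p = 0.0327) and -1.27 ± 0.24 with afatinib (adjusted p = 0.000825), a level 2.42-fold lower. CTGF had 111, 88.4 and 66.5 CPM in untreated cells, 44.3, 48.9 and 23.4 CPM with cetuximab, and 34.7, 33.2 and 19.2 CPM with afatinib. The groups did not overlap, and the log2FC was -1.19 ± 0.29 (adjusted p = 0.0265) with cetuximab and -1.62 ± 0.30 (adjusted p = 0.000616) with afatinib. ANKRD1 had 11, 13.7 and 7.79 CPM in untreated cells, 3.9, 6.57 and 2.69 CPM with cetuximab, and 3.01, 4.71 and 2.31 CPM with afatinib. It was lower without overlap in both, by -1.71 ± 0.36 with afatinib (adjusted p = 0.00315) and by -1.31 ± 0.35 with cetuximab (adjusted p = 0.0501, and 2.35e-07 with the replicate number as a block). Of the 9 members, 3 passed the test with cetuximab and 5 with afatinib at 4 h, where 1.43% and 3.68% of all genes passed. With the block, 5 passed with cetuximab and 6 with afatinib, where 7.5% and 13.2% of all genes passed. Without replicate 1 of each condition, CYR61 differed by -0.85 (adjusted p = 0.535) and CTGF by -1.11 (0.374) with cetuximab, and the 5 genes called with afatinib had adjusted p-values from 0.0521 (CTGF, -1.58) through 0.0651 (WWTR1), 0.119 (AMOTL2) and 0.12 (CYR61, -1.21) to 0.186 (ANKRD1). Without replicate 2, the calls of CYR61 and CTGF with cetuximab were lost as well (adjusted p = 0.113 and 0.185), and they were lost when only cetuximab and untreated libraries were fitted (0.178 and 0.136).

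After 24 h the same genes were lower in MKN1 cells. CYR61 had 218, 172 and 218 CPM in untreated cells, 107, 99.2 and 94 CPM with cetuximab, and 83.4, 87.9 and 65.8 CPM with afatinib, which gave a log2FC of -1.03 ± 0.24 (adjusted p = 0.00433) and -1.38 ± 0.24 (adjusted p = 6.32e-05). CTGF had 96.1, 59.9 and 75 CPM in untreated cells, 31.6, 30.7 and 26.6 CPM with cetuximab, and 19.3, 21.2 and 14.3 CPM with afatinib. All 3 groups were apart, and CTGF fell by 1.39 ± 0.29 (adjusted p = 0.00227) and by 2.09 ± 0.30 (adjusted p = 5.05e-06) on the log2 scale, the latter 4.26-fold. ANKRD1 fell by 1.22 ± 0.34 with afatinib (adjusted p = 0.00772), and with cetuximab its log2FC was -0.90 ± 0.34 (adjusted p = 0.0821). With cetuximab 3 and with afatinib 4 of the 9 members passed the test at 24 h, against 10.8% and 25.6% of all genes. Without replicate 1, the adjusted p of CYR61 and CTGF with cetuximab was 0.08 and 0.0561 and that of ANKRD1 with afatinib 0.0884, and without replicate 3 the latter was 0.0558.

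**Figure D2:**
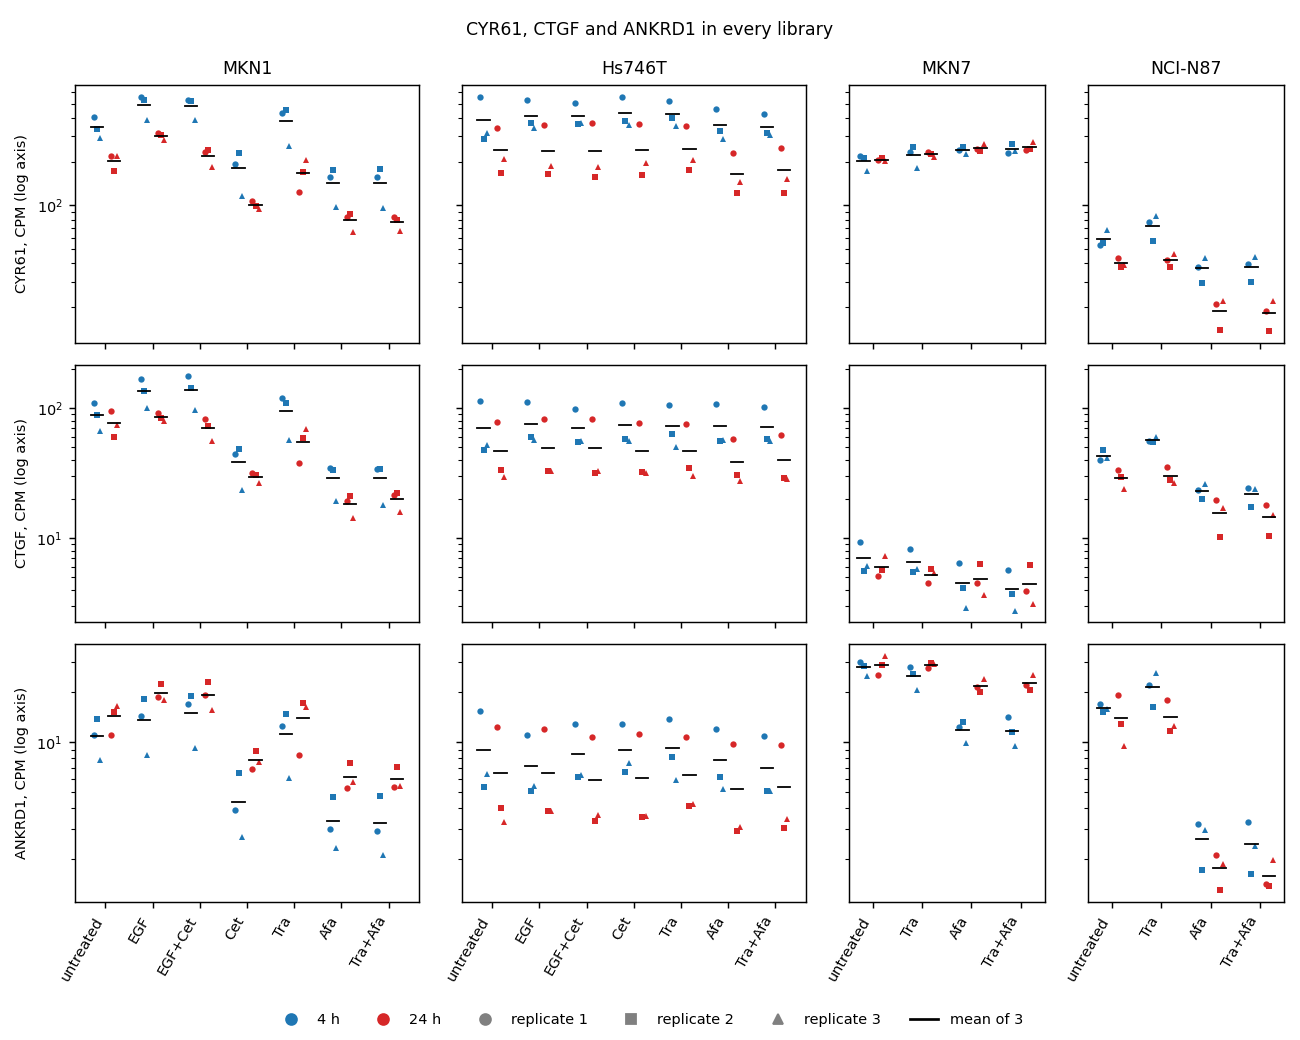
CYR61, CTGF and ANKRD1 in every library as CPM on a log axis, by cell line and treatment, at 4 h (blue) and 24 h (red), with the replicate shown by the symbol and the mean as a bar. In MKN1 cells the libraries with cetuximab or afatinib sat below the untreated ones of the same time, in NCI-N87 cells those with afatinib did, and in Hs746T cells replicate 1 sat above the other replicates in every condition.

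With EGF, WWTR1 rose in MKN1 cells, while rises of CYR61 and CTGF depended on the fit. WWTR1 had 86.9, 76.6 and 114 CPM in untreated MKN1 cells at 4 h and 201, 168 and 212 CPM with EGF. The groups were apart, and WWTR1 rose by 1.07 ± 0.16 on the log2 scale at 4 h (2.11-fold, adjusted p = 1.07e-05). At 24 h it had 45.8, 36.5 and 52 CPM untreated and 95.1, 81.4 and 102 CPM with EGF, again a rise of 1.07 ± 0.16 (adjusted p = 3.09e-06). At 4 h WWTR1 fell by 0.85 ± 0.16 with cetuximab (adjusted p = 0.00145) and by 0.90 ± 0.16 with afatinib (adjusted p = 0.000434). The cetuximab call was lost without replicate 1 (adjusted p = 0.159) or 3 (0.0831) and in the compared groups alone (0.0505). The afatinib call was lost without replicate 1 (0.0651). At 24 h WWTR1 did not pass the test with cetuximab (0.05 ± 0.16) or afatinib (-0.11 ± 0.16), and untreated cells had themselves reached a lower level. AJUBA, with the uncertainty given above, fell by 1.30 ± 0.18 with EGF at 4 h (adjusted p = 2.63e-06), from 9.57, 6.8 and 7.13 CPM to 2.76, 3.11 and 3.69 CPM, without overlap. These 2 genes were the members that passed at 4 h, where 6.82% of all genes did. CYR61 had 551, 528 and 384 CPM with EGF at 4 h, of which only replicate 3 lay within the range of untreated cells, and its log2FC was 0.52 ± 0.23 (adjusted p = 0.232). CTGF had 169, 135 and 101 CPM and a log2FC of 0.62 ± 0.29 (adjusted p = 0.249). With the replicate number as a block, CYR61 (adjusted p = 0.00766), CTGF (0.0045) and LATS2 (log2FC -0.21, 0.0033) also passed, 5 members in all, where 17% of all genes passed. Without replicate 3 CYR61 also passed (0.56, adjusted p = 0.0263). At 24 h CYR61 had 316, 305 and 280 CPM with EGF, above all untreated libraries, and rose by 0.59 ± 0.23 (adjusted p = 0.049, and 0.241 without replicate 1 or 0.28 without replicate 2). AMOTL1 (-0.44 ± 0.16) and YAP1 (0.26 ± 0.11) also passed at 24 h, where 35.8% of all genes did, and each lost the call without replicate 1 (adjusted p = 0.157 and 0.257). AMOTL1 also lost it without replicate 2 (0.159) and YAP1 without replicate 3 (0.194). In the compared groups alone AMOTL1 (0.0704) and YAP1 (0.151) lost it, and YAP1 lost it without a filter too (0.0694). CTGF at 24 h had a log2FC of 0.17 ± 0.29 (adjusted p = 0.678), which was -0.03 when libraries were scaled by library size alone. That scaling moved the median of all genes by -0.20 in this comparison, and CYR61 (0.39, adjusted p = 0.163) and YAP1 (0.07, 0.643) missed the threshold with it. The mesenchymal marker VIM rose by 1.73 and the epithelial marker CDH1 fell by 1.35 with EGF at 24 h, with 2 of 5 mesenchymal markers up and 2 of 6 epithelial markers down, and their part in the result was not tested. CDH1 was low in MKN1 cells throughout, at 0.747 to 6.04 CPM over all libraries of this line.

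With EGF + cetuximab at 4 h the levels of CYR61 and CTGF were near those with EGF. CYR61 had 532, 518 and 388 CPM and CTGF 177, 144 and 97.6 CPM, and the difference from EGF alone was -0.02 ± 0.23 for CYR61 and 0.04 ± 0.29 for CTGF. The ranges overlapped almost fully. At 24 h CYR61 had 234, 239 and 184 CPM with EGF + cetuximab, below all libraries with EGF (316, 305 and 280 CPM), with -0.47 ± 0.23 against EGF (adjusted p = 0.494). CTGF had 82.1, 72.5 and 56.4 CPM, lower than with EGF in each replicate number but overlapping it, with -0.30 ± 0.29 (adjusted p = 0.815). At 24 h 0 of 9 members passed against EGF in edgeR, 1 at an unadjusted p below 0.05, where 0.646% of all genes did, and WWTR1 (-0.54, adjusted p = 0.0446) passed in DESeq2. At 4 h WWTR1 had 147, 102 and 160 CPM, below all libraries with EGF alone and overlapping untreated cells, with -0.51 ± 0.16 against EGF (adjusted p = 0.201, and 3.71e-05 with the block, under which 3.99% of all genes passed). AJUBA was the member that passed the test between EGF + cetuximab and EGF at 4 h, with 6.24, 6 and 4.67 CPM and a log2FC of 0.83 ± 0.18 (adjusted p = 0.0121, and 0.145 without replicate 1 or 0.434 without replicate 2), where 0.701% of all genes passed. This AJUBA call was also lost in the compared groups alone (adjusted p = 0.164). Against untreated cells, 0 of 9 members passed at 4 h in edgeR, 4 of them at an unadjusted p below 0.05, and 0.717% of all genes passed. With the block, CYR61, CTGF, AJUBA and WWTR1 passed (adjusted p = 0.035, 0.011, 0.00943 and 1.53e-05, with 3.93% of all genes), and DESeq2 gave WWTR1 an adjusted p of 0.035. At 24 h WWTR1 passed against untreated cells (0.54 ± 0.16, adjusted p = 0.0144, and 0.313 without replicate 1), where 18.6% of all genes did. That WWTR1 call was also lost with library size alone (adjusted p = 0.0696).

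**Figure D3:**
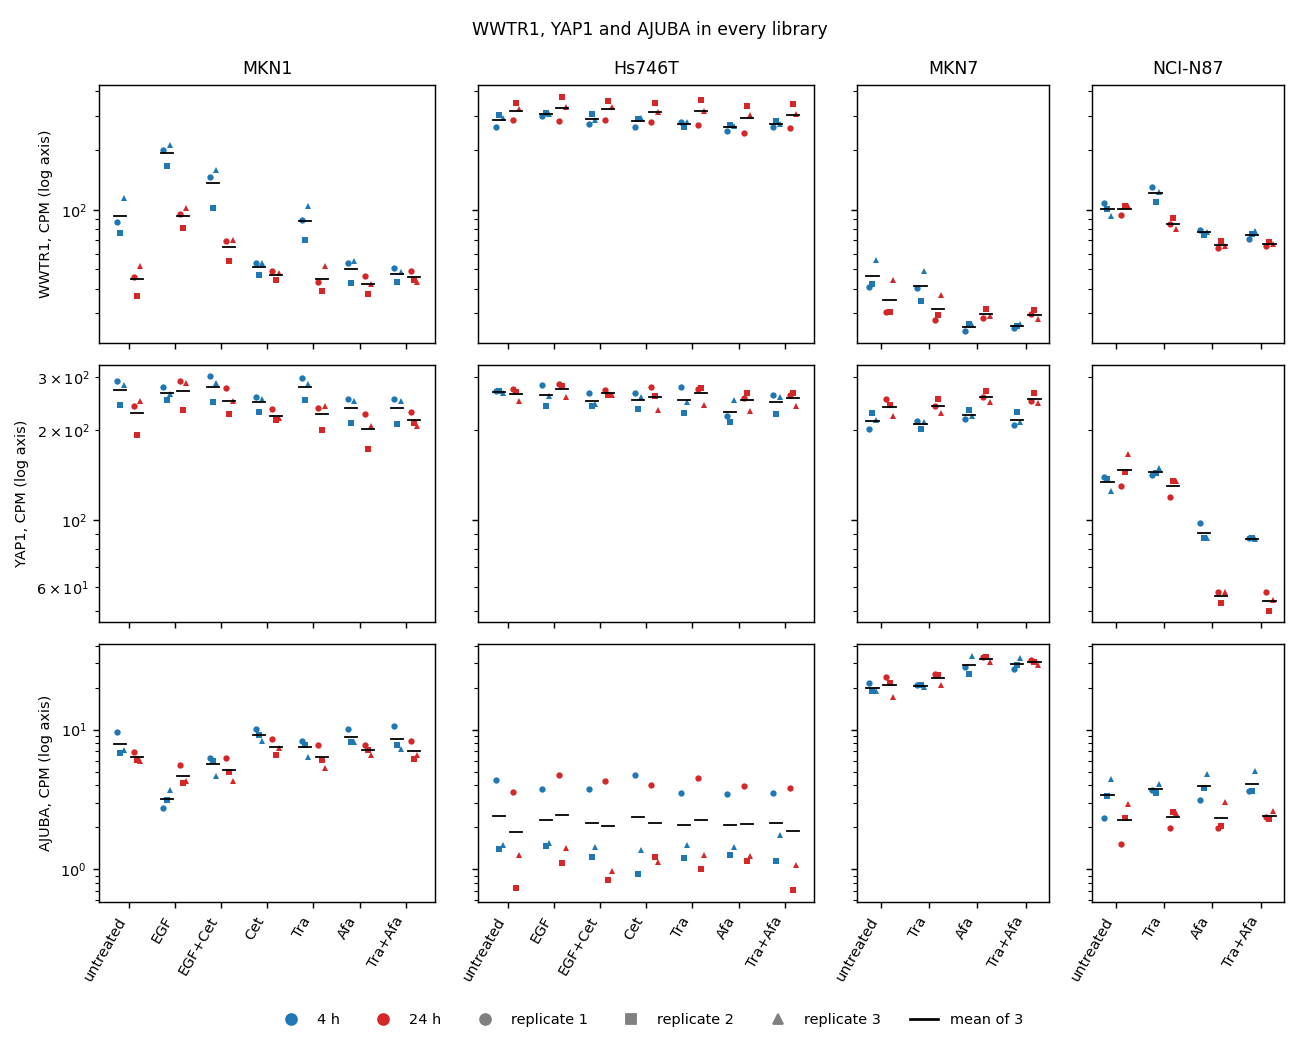
WWTR1, YAP1 and AJUBA in every library as CPM on a log axis, by cell line and treatment, at 4 h (blue) and 24 h (red), with the replicate shown by the symbol and the mean as a bar. In MKN1 cells WWTR1 was higher and AJUBA lower with EGF, and in NCI-N87 cells YAP1 was lower with afatinib, most at 24 h.

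Among the regulators other than AJUBA, AMOTL2 was lower with afatinib in MKN1 cells, while its difference with cetuximab was smaller and its call depended on the fit. AMOTL2 fell by 0.42 ± 0.10 with afatinib at 4 h (adjusted p = 0.00774), from 159, 142 and 149 CPM to 126, 115 and 98.5 CPM, and by 0.42 ± 0.10 at 24 h (adjusted p = 0.00146), without overlap at either time. With cetuximab its log2FC was -0.30 ± 0.10 at both times, with an adjusted p of 0.131 at 4 h (0.00294 with the block) and of 0.041 at 24 h (0.162, 0.111 and 0.161 without replicates 1, 2 and 3). The 24 h call with cetuximab was also lost with library size alone (adjusted p = 0.129), without a filter (0.0957) and in the compared groups alone (0.0863). The 4 h call with afatinib was also lost without replicate 2 (adjusted p = 0.0693) or 3 (0.0796) and in the compared groups alone (0.0935). AMOTL1, the other angiomotin-like gene, had a log2FC of 0.02 ± 0.16 with afatinib at 4 h and of 0.32 ± 0.16 at 24 h. LATS2 stayed between 44.6 and 65.2 CPM in the libraries of untreated cells and of cells with EGF, cetuximab, EGF + cetuximab or afatinib. YAP1 had a log2FC of -0.21 ± 0.11 with afatinib at 4 h, which passed only with the block (adjusted p = 0.00441).

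In NCI-N87 cells most members fell with afatinib, including YAP1 itself. ANKRD1 had 17, 15.1 and 15.8 CPM in untreated cells at 4 h and 3.22, 1.71 and 2.98 CPM with afatinib, and 19.2, 12.9 and 9.52 CPM against 2.11, 1.3 and 1.87 CPM at 24 h. It fell by 2.60 ± 0.29 (adjusted p = 1.16e-06) and by 3.01 ± 0.30 (adjusted p = 1.55e-08), and the groups were far apart. YAP1 had 139, 138 and 125 CPM in untreated cells at 4 h and 97.7, 87.4 and 87.5 CPM with afatinib, and 130, 145 and 167 CPM against 57.7, 53.1 and 57.5 CPM at 24 h. All afatinib libraries lay below the untreated ones, with a log2FC of -0.56 ± 0.08 at 4 h (adjusted p = 4.85e-05) and -1.42 ± 0.09 at 24 h (adjusted p = 6.44e-12), a level 2.68-fold lower. CYR61 had 53.4, 54.9 and 68.1 CPM at 4 h and 38.1, 29.5 and 43.4 CPM with afatinib, and 43.4, 38.1 and 39 CPM against 21, 14 and 22 CPM at 24 h. It fell by 0.66 ± 0.19 (adjusted p = 0.0176, and 0.127 without replicate 1 or 0.06 without replicate 3) and by 1.11 ± 0.19 (adjusted p = 3.88e-05), without overlap at either time. CTGF fell by 0.89 ± 0.20 (adjusted p = 0.0033), from 40.3, 47.4 and 41.4 CPM to 23.4, 20 and 26.1 CPM, and at 24 h by 0.92 ± 0.21 (adjusted p = 0.000515), from 33.3, 29.6 and 23.9 CPM to 19.6, 10.3 and 16.9 CPM. WWTR1 fell by 0.38 ± 0.08 and 0.64 ± 0.08 (adjusted p = 0.00117 and 3.39e-07). AMOTL1 fell at 24 h by 1.19 ± 0.21 (adjusted p = 4.86e-05), and at 4 h its log2FC of -0.37 ± 0.21 passed only with the block (adjusted p = 0.0035, with 33% of all genes). AMOTL2 fell by 0.55 ± 0.15 and 0.50 ± 0.16 (adjusted p = 0.0157 and 0.00777). The AMOTL2 call was lost without replicate 1 (adjusted p = 0.124 at 4 h and 0.13 at 24 h) and without replicate 2 (0.159 and 0.177), and at 24 h with library size alone (-0.25, 0.13). AJUBA (0.02 ± 0.25 at 24 h) and LATS2 (-0.14 ± 0.10) did not pass. In all, 6 of 9 members fell and 0 rose at 4 h, and 7 of 9 fell and 0 rose at 24 h. Of all genes, 18.2% and 62.5% were called in either direction. Of 19078 genes tested, 1737 fell and 1728 rose at 4 h, and 5919 fell and 6011 rose at 24 h. Counted in either direction, the share of members at 24 h is near that of all genes, but the calls of members went down only. At 24 h the epithelial markers KRT18 and KRT8 also fell in these cells, by 1.87 and 1.37 on the log2 scale, and their part in the result was not tested. Over all libraries of this line KRT18 ranged from 676 to 4084 CPM and KRT8 from 3341 to 14183 CPM. The other epithelial markers had narrower ranges, EPCAM 244 to 603 CPM, CDH1 197 to 344, KRT19 3385 to 5979 and CLDN4 521 to 906. These ranges pool all treatments and both times, so they give no direction with afatinib.

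MKN7 cells responded to afatinib in another way. CYR61 had 220, 213 and 172 CPM in untreated cells at 4 h and 240, 251 and 226 CPM with afatinib, and 204, 212 and 202 CPM against 246, 237 and 266 CPM at 24 h. The afatinib libraries lay above the untreated ones at both times, by 0.21 ± 0.10 at 4 h (adjusted p = 0.147, and 0.013 with the block, under which 38.4% of all genes passed) and by 0.27 ± 0.10 at 24 h (adjusted p = 0.0287). The 24 h call was lost without each of replicates 1, 2 and 3 in turn (adjusted p = 0.174, 0.0519 and 0.0512). CTGF, low in this line, had 9.35, 5.57 and 6.06 CPM at 4 h and 6.4, 4.12 and 2.88 CPM with afatinib. These ranges overlapped, and the log2FC was -0.68 ± 0.31 (adjusted p = 0.124, and 0.00302 with the block). ANKRD1 fell by 1.28 ± 0.15 at 4 h (adjusted p = 2.14e-06), from 30.3, 28.7 and 24.9 CPM to 12.3, 13.2 and 9.91 CPM, and by 0.42 ± 0.15 at 24 h (adjusted p = 0.019, and 0.18 without replicate 2 or 0.082 with library size alone). Both scaffold genes changed at different times. AMOTL1 fell by 0.86 ± 0.09 at 4 h (adjusted p = 4.98e-07), from 170, 176 and 190 CPM to 99.1, 108 and 96.6 CPM, and did not pass at 24 h (0.10 ± 0.09). AMOTL2 rose by 0.85 ± 0.11 at 24 h (1.8-fold, adjusted p = 2.46e-06), from 183, 181 and 145 CPM to 318, 334 and 269 CPM, and did not pass at 4 h (0.13 ± 0.11). LATS2 rose by 0.48 ± 0.16 and 0.55 ± 0.16 (adjusted p = 0.0354 and 0.00748, and 0.281 and 0.0891 without replicate 1, and 0.0983 at 4 h without replicate 2), and AJUBA by 0.51 ± 0.11 and 0.62 ± 0.11 (adjusted p = 0.00164 and 7.31e-05). WWTR1 fell by 0.89 ± 0.15 at 4 h (adjusted p = 0.000117), from 40.9, 42.3 and 55.7 CPM to 24.4, 26.3 and 26.1 CPM, and its log2FC at 24 h was -0.25 ± 0.14. YAP1 differed by 0.02 ± 0.07 and 0.10 ± 0.06. At each time 5 of 9 members passed, where 22.2% of all genes did at 4 h and 51.6% at 24 h.

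**Figure D4:**
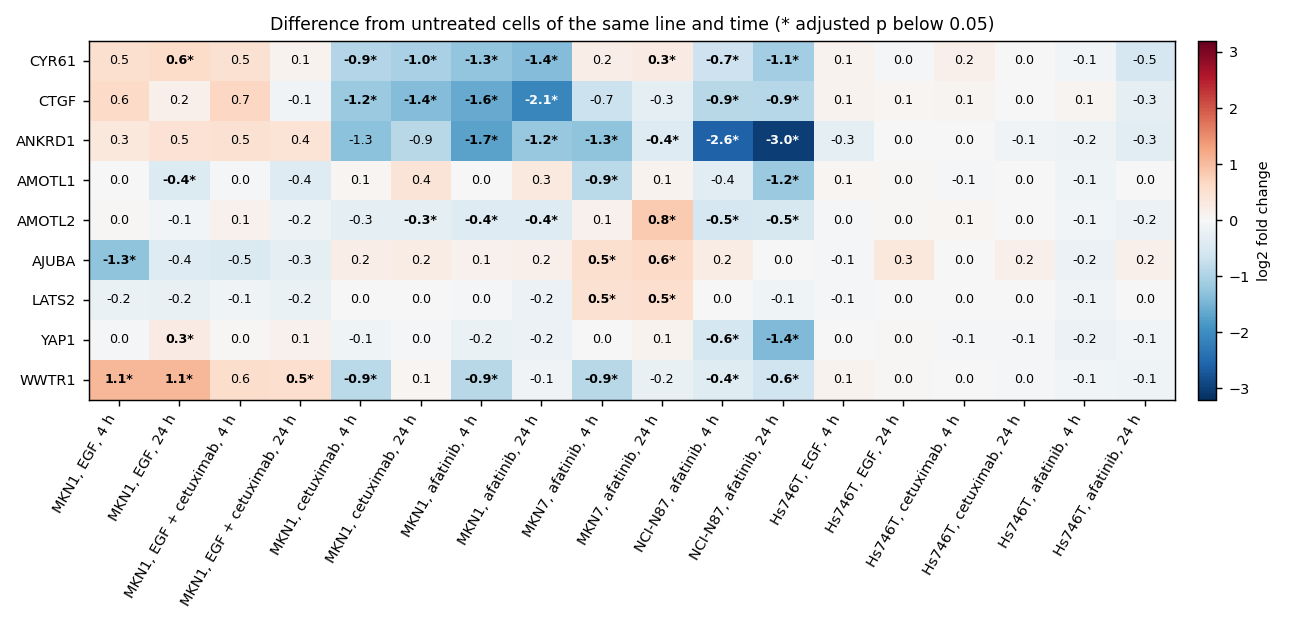
Log2FC against untreated cells of the same line and time for the 9 genes, in colour and as numbers, with an asterisk where the adjusted p was below 0.05. CYR61, CTGF and ANKRD1 were lower with afatinib in MKN1 and NCI-N87 cells. In MKN7 cells ANKRD1 was lower too, AMOTL1 and WWTR1 were lower at 4 h, and AJUBA, LATS2 and, at 24 h, AMOTL2 were higher. Hs746T cells had no asterisk.

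In Hs746T cells no member passed the test after any treatment (0 of 108 tests in edgeR, 1 at an unadjusted p below 0.05, and 0 called and 2 listed in DESeq2). In each of these 12 comparisons, afatinib included, 0% of all genes passed as well. CYR61 had 558, 285 and 314 CPM in untreated cells at 4 h and 459, 323 and 287 CPM with afatinib, and 341, 167 and 208 CPM against 228, 121 and 145 CPM at 24 h. The ranges overlapped at both times, and replicate 1 was the highest in each. Over the 14 conditions of this line, replicate 1 stood above replicates 2 and 3 in every one for CYR61, CTGF, ANKRD1, AMOTL2 and AJUBA. Its median ratio to their mean was 1.76 for CYR61, 2.09 for CTGF, 2.58 for ANKRD1 and 3.38 for AJUBA, against 1.06 for YAP1 and 1.01 for LATS2. Between cells with the same replicate number, CYR61 with afatinib at 24 h was 0.67, 0.73 and 0.70 times its untreated level. With the replicate number as a block, CYR61 at 24 h passed with afatinib (log2FC -0.53, adjusted p = 4.24e-05) and with trastuzumab + afatinib (-0.48, 0.000181), and AMOTL1 (-0.14, 0.0262) and YAP1 (-0.19, 0.00635) passed with afatinib at 4 h, 4 of the 108 tests. With the block 18.6% of all genes passed with afatinib at 4 h, so that 2 of 9 members is near the share of all genes, 0.712% passed with afatinib and 0.557% with trastuzumab + afatinib at 24 h. CTGF did not pass under the block either, with 78.5, 33.2 and 29.5 CPM untreated and 58.4, 30.5 and 27.5 CPM with afatinib at 24 h. With EGF, WWTR1 had 298, 310 and 304 CPM at 4 h against 264, 303 and 292 CPM in untreated cells, which overlapped.

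**Figure D5:**
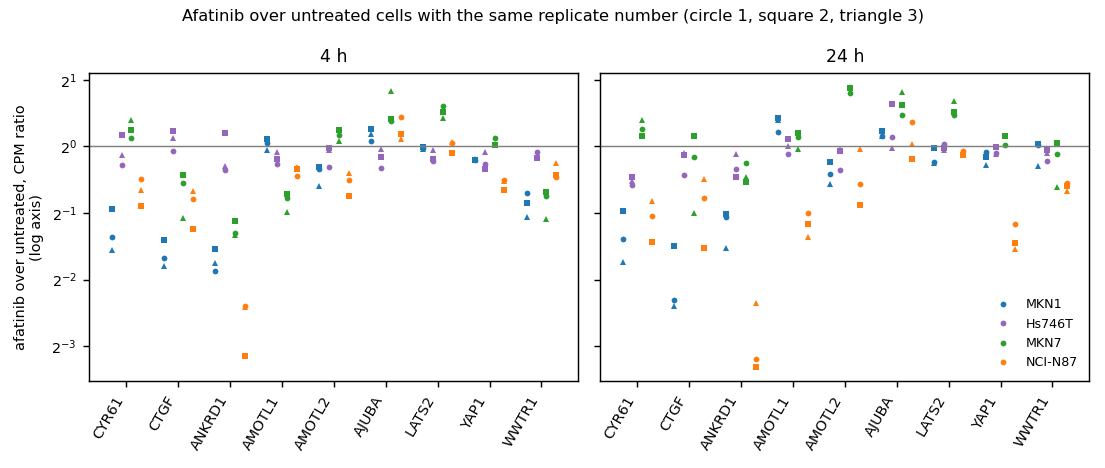
Ratio of afatinib to untreated CPM between libraries with the same replicate number, for the 9 genes in the 4 cell lines at 4 h and 24 h, on a log axis with a line at 1. CYR61 ratios lay below 1 in MKN1 and NCI-N87 cells, above 1 in MKN7 cells, and at 24 h between 0.67 and 0.73 in Hs746T cells.

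No member passed the test with trastuzumab alone in any of the 4 lines. In edgeR 0 of 72 tests passed, as did 0% of all genes in each of the 8 comparisons, 3 at an unadjusted p below 0.05, with log2FC from -0.47 to 0.41, and DESeq2 called 0 and listed 4 at an unadjusted p below 0.05. With the block 0 passed and 14 were listed. Trastuzumab + afatinib did not differ from afatinib alone by a passed test in any of 72 tests, and 0% of all genes passed in each of these 8 comparisons, with log2FC from -0.20 to 0.11 and 0 tests at an unadjusted p below 0.05 (0 called in DESeq2 and 0 with the block, 1 listed with the block). Over the 36 comparisons of a treatment with untreated cells, 77 of 324 tests of the members passed, while the share of all genes called ran from 0% to 64.7%. With trastuzumab + afatinib, whose values were near those with afatinib, it was 3.95% and 26.8% in MKN1, 23.4% and 51.9% in MKN7, and 17.3% and 64.7% in NCI-N87 cells at 4 h and 24 h. CTGF fell in 10 and rose in 0, ANKRD1 fell in 12 and rose in 0, and AMOTL1 fell in 5 and rose in 0. CYR61 fell in 10 and rose in 3, AMOTL2 fell in 9 and rose in 2, WWTR1 fell in 9 and rose in 3, and YAP1 fell in 4 and rose in 1. AJUBA rose in 4 and fell in 1, and LATS2 rose in 4 and fell in 0. Treatments of a line and time share their untreated cells, so these counts are not independent.

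The difference in a treatment effect between lines was tested directly with interaction contrasts in a fit of all libraries, and 14 of 72 passed. The afatinib effect on CYR61 was higher in MKN7 than in MKN1 cells by 1.51 ± 0.39 at 4 h (adjusted p = 0.0203) and by 1.64 ± 0.39 at 24 h (adjusted p = 0.00244), on the log2 scale. The latter was lost without replicate 3 (adjusted p = 0.122) and the former without replicate 2 (0.14) or 3 (0.546). At 24 h CTGF (1.77 ± 0.56), AMOTL2 (1.26 ± 0.23) and LATS2 (0.73 ± 0.17) also differed between MKN7 and MKN1 cells, as AMOTL1 did at 4 h (-0.85 ± 0.21). Of all genes, 1.38% passed in this contrast at 4 h and 7.61% at 24 h. With the block 6 members passed at 4 h, CTGF (0.97), AMOTL2 (0.58), LATS2 (0.54) and YAP1 (0.26) besides CYR61 and AMOTL1, where 10.3% of all genes did. In NCI-N87 against MKN1 cells the afatinib effect at 24 h was lower for ANKRD1 (-1.77 ± 0.64), AMOTL1 (-1.49 ± 0.21), YAP1 (-1.22 ± 0.13) and WWTR1 (-0.51 ± 0.19), where 28% of all genes passed, and at 4 h 0 of 9 members passed in edgeR, 2 at an unadjusted p below 0.05 (1.83% of all genes). With the block 6 members passed in that 4 h contrast, where 10.6% of all genes did. In Hs746T against MKN1 cells the afatinib effect was higher for WWTR1 at 4 h (0.75 ± 0.19, 0.372% of all genes) and for CTGF at 24 h (1.79 ± 0.54, 4.41% of all genes). With the block, CYR61 (1.21), CTGF (1.72) and ANKRD1 (1.54) passed too at 4 h, where 13.2% of all genes did. The effect of EGF on WWTR1 was lower in Hs746T than in MKN1 cells by -0.98 ± 0.19 at 4 h (adjusted p = 0.000681) and by -1.001 ± 0.19 at 24 h (adjusted p = 0.000109), where 0.92% and 7.93% of all genes passed, and the 4 h call was lost without replicate 1 (adjusted p = 0.0745). With the block ANKRD1 (-0.59) and AJUBA (1.24) passed too at 4 h, where 6.99% of all genes did. The calls of ANKRD1 in NCI-N87 cells and of CTGF at 24 h in MKN7 and Hs746T cells were each lost without replicate 2 (adjusted p = 0.216, 0.31 and 0.167) and without replicate 3 (0.073, 0.119 and 0.531), that of AMOTL1 in MKN7 cells without replicate 2 (0.364) or 3 (0.132), and those of WWTR1 with afatinib without each replicate in turn. The WWTR1 calls with afatinib in NCI-N87 and Hs746T cells were also lost with library size alone (adjusted p = 0.208 and 0.145), without a filter (0.0817 and 0.0985) and in the compared groups alone (0.0704 and 0.115). In NCI-N87 cells it was lost with the filter of 10 counts (0.121) and in DESeq2 (0.087) too. The CTGF call with afatinib at 24 h in Hs746T cells was also lost in the compared groups alone (adjusted p = 0.121).

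Some members differed between 4 h and 24 h without treatment. In untreated MKN1 cells CYR61 fell by 0.78 ± 0.24 between 4 h and 24 h (adjusted p = 0.0097), WWTR1 by 1.07 ± 0.16 (adjusted p = 2.81e-06) and YAP1 by 0.28 ± 0.11 (adjusted p = 0.0378), while AMOTL1 rose by 0.41 ± 0.16 (adjusted p = 0.0434) and 34.1% of all genes passed. The CYR61, AMOTL1 and YAP1 calls were lost without replicate 1 (adjusted p = 0.182, 0.182 and 0.225). CYR61 and AMOTL1 also lost theirs without replicate 2 (0.11 and 0.168) and YAP1 without replicate 3 (0.171). In the compared groups alone AMOTL1 (0.0691) and YAP1 (0.0911) lost theirs. YAP1 also lost its call with library size alone (0.479) and without a filter (0.0805). In MKN7 cells AMOTL1 (-0.41 ± 0.09) and WWTR1 (-0.44 ± 0.14) fell, against 16.4% of all genes, and without replicate 1 their adjusted p was 0.0711 and 0.288, with 0.213 for WWTR1 without replicate 2. The WWTR1 call was also lost with library size alone (adjusted p = 0.0808) and in the compared groups alone (0.169). In NCI-N87 cells 0 of 9 members passed in edgeR, 3 at an unadjusted p below 0.05, where 0.267% of all genes did, and CYR61 (-0.53, adjusted p = 0.00185), CTGF (-0.57, 0.0323) and AJUBA (-0.57, 0.0327) passed with the block, under which 4.32% of all genes did. In Hs746T cells LATS2 fell by 0.39 ± 0.09 (adjusted p = 0.0127), from 42.5, 43.4 and 48.4 CPM to 33.9, 33.9 and 33 CPM, where 1.48% of all genes passed, and its call was lost without each replicate in turn (adjusted p = 0.0692, 0.171 and 0.386). The LATS2 call was also lost without a filter (adjusted p = 0.0813) and in the compared groups alone (0.277). In this line the time points of replicate 2 belong to different series of sample numbers, so series and time are mixed in it. Without replicate 1, CYR61 (-0.61, adjusted p = 0.0103), CTGF (-0.61, 0.000869), ANKRD1 (-0.63, 0.018) and AMOTL2 (-0.44, 0.012) passed.

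Other genes of the pathway were counted from fixed lists, and the counts stand against the share of all genes called in either direction in the same comparison, with afatinib 3.68% at 4 h and 25.6% at 24 h in MKN1 cells, 51.6% in MKN7 and 62.5% in NCI-N87 cells at 24 h, and with EGF 6.82% and 35.8% in MKN1 cells. Of 22 other YAP and TAZ target genes tested in MKN1 cells, 4 fell and 0 rose with afatinib at 4 h (median log2FC -0.26, against 0.01 over all genes), among them AREG, a ligand of EGFR (-2.34), and F3, the tissue factor gene (-1.70), and 8 fell and 1 rose at 24 h. With EGF, 7 rose and 1 fell at 4 h, with AREG at 2.26, and 12 rose and 5 fell at 24 h. In NCI-N87 cells with afatinib at 24 h, 13 of 21 fell and 4 rose (median -0.95 against 0.03), led by F3 (-3.51), and in MKN7 cells 6 of 22 fell and 7 rose. Of the Hippo kinases and upstream regulators, 1 of 23 fell and 0 rose in MKN1 cells with afatinib at 4 h. In NCI-N87 cells at 24 h 15 of 22 fell and 3 rose, with the protocadherin FAT1 at -1.87, the kinase MAP4K4 at -1.41 and the scaffold NF2 at -1.36. Of the TEAD factors and VGLL cofactors there, 2 of 6 fell, TEAD4 (-1.32) and TEAD1 (-1.04), and 2 rose, a share near that of all genes. Of the SRF and actin cytoskeleton genes 9 of 14 fell and 1 rose in these cells, with FLNA at -1.56 and ACTB at -1.37. Counted in either direction this share is also near that of all genes, of which 5919 fell and 6011 rose among 19078 tested. In MKN1 cells with afatinib at 4 h 1 of 15 fell.

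Genes known to respond early to growth factors moved in 3 of the lines. Of 11 immediate early genes tested in MKN1 cells, 8 fell with cetuximab and 8 with afatinib at 4 h (median log2FC -1.37 and -1.62), where 1.43% and 3.68% of all genes passed, and 11 of 11 fell with each at 24 h, where 10.8% and 25.6% did. With afatinib at 4 h EGR1 fell by 3.59, FOSL1 by 2.25 and MYC by 1.81. With EGF at 4 h 8 of 11 rose, with EGR2 at 1.96 and EGR3 at 1.82. With afatinib at 4 h, 8 of 11 fell in MKN7 and 9 of 10 in NCI-N87 cells, against 22.2% and 18.2% of all genes called. In Hs746T cells with afatinib 0 genes passed in each of these 5 lists at both times, where 0% of all genes passed, so the lists could give no other count. With the replicate block 18.6% of all genes passed there at 4 h and 0.712% at 24 h, and the lists were not counted in that fit. Of 6 integrin genes that were tested as receptors of CCN proteins, 4 fell in NCI-N87 cells with afatinib at 24 h, with ITGA6 at -2.36, ITGB5 at -1.59 and ITGB1 at -1.05. In that comparison 62.5% of all genes were called in either direction, and of 19078 genes tested 5919 fell and 6011 rose. Among the other CCN family genes, NOV fell by 1.66 there.

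CTGF and CYR61 followed each other closely over the 44 conditions pooled, but not in every line. With log2 CPM centred on each line, their Pearson r was 0.93, a description over conditions that share untreated cells, lines and libraries. This pooled r does not show how both genes moved within a single line. In MKN7 cells with afatinib at 4 h they moved apart between libraries with the same replicate number. CYR61 was 1.09, 1.18 and 1.32 times its untreated level there. CTGF was 0.68, 0.74 and 0.47 times its own, with overlapping ranges. In MKN1 and NCI-N87 cells both genes fell with afatinib at both times. Among 12768 genes tested in all 4 lines, CTGF ranked second by likeness to CYR61, after the Hippo scaffold gene SAV1 (r = 0.94) and before AMIGO2, PLK2 and PLXNA2 (0.90, 0.90 and 0.89). CYR61 was the next most like CTGF after MIDN, CSRNP1 and KLF10 (0.94, 0.94 and 0.93), and was followed by MAFK (0.93). Of the other members, r with CYR61 was 0.75 for AMOTL2, 0.68 for WWTR1, 0.62 for ANKRD1 and 0.59 for YAP1, and it was 0.27 for LATS2, -0.09 for AJUBA and -0.16 for AMOTL1.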

How the data were processed

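Each library came with the raw counts that the authors deposited, 1 value for every Ensembl identifier and without normalization. RNA was poly(A)-selected and libraries were directional. The submitters' processing notes name Trim Galore, STAR and hg38, while versions, the counting tool, its annotation and its strand setting are not given in the sources used here. Identifiers were matched to GENCODE 29, which lacks 8404 of 65217 identifiers (0.0422% of counts). The 37 mitochondrial identifiers held 0 counts. No pair of replicates was identical (ratio of squared differences to the Poisson expectation at least 7.22).

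edgeR 4.0.16 under R 4.3.3 was applied with TMM scaling, filterByExpr (count 10, total 15), glmQLFit and glmQLFTest, and p-values were adjusted after Benjamini-Hochberg over all genes tested. All libraries of one line were fitted together with 1 mean per condition. Comparisons between lines and interaction contrasts used a fit of all libraries. A gene passed the test at an adjusted p below 0.05. SE was computed as the absolute log2FC divided by the square root of the F value. The models were tested on simulated data. Alternatives were a fit of the compared groups only, DESeq2 1.42.0, scaling to library totals, unfiltered genes, a filter of 10 counts in each library, a block for the replicate number, and fits without replicate 1, 2 or 3.

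Named genes are all members, the markers, the 5 genes most like CYR61 and CTGF, and for each list up to 3 genes with an absolute log2FC above 1 and the largest change. The members and lists were chosen with earlier results of these data known. Replicate numbers come from the sample titles. Deviations from the condition mean correlated between same-numbered libraries with r above 0.1 in every pair in 7 of the 8 sets of line and time (mean r 0.51 to 0.78), so the numbers were taken to pair these libraries. The exception was MKN1 at 24 h (lowest r -0.26). Between time points every pair passed in NCI-N87 cells only. Sample numbering falls into 2 series, with 65 and 67 libraries. All treatments of one line, time and replicate number belong to the same series. Plots used matplotlib 3.10.9 in Python 3.11.15.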

Additional observations from a re-analysis of the deposited data

Results flagged for a closer look

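The effect of a treatment differed between 2 cell lines by an interaction contrast in edgeR (adjusted p below 0.05) in 14 of 72 tests of the members. Values are differences of log2FC. Several of these calls were lost in alternative fits, as given above, those of WWTR1 with afatinib in most of them. For afatinib in MKN7 minus MKN1 cells they were 1.51 for CYR61 and -0.85 for AMOTL1 at 4 h, and 1.64 for CYR61, 1.77 for CTGF, 1.26 for AMOTL2 and 0.73 for LATS2 at 24 h. For afatinib in NCI-N87 minus MKN1 cells at 24 h they were -1.77 for ANKRD1, -1.49 for AMOTL1, -1.22 for YAP1 and -0.51 for WWTR1. For afatinib in Hs746T minus MKN1 cells they were 0.75 for WWTR1 at 4 h and 1.79 for CTGF at 24 h. For EGF in Hs746T minus MKN1 cells WWTR1 differed by -0.98 at 4 h and -1.001 at 24 h.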

How the results depend on the processing

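Fitting only the compared groups or leaving out a replicate also changed which genes passed the filter, and DESeq2 changed the scaling with the model. Of treatments against untreated cells, 63 calls of single members were followed, those of all members except CYR61 and CTGF with EGF, cetuximab or afatinib alone, which are given below. They gave 567 values under the alternatives, of which 509 kept direction and side of the threshold, 58 missed it with the same direction, and 0 reversed. For treatments against untreated cells, 77 tests of members passed, and between 47 and 70 without 1 replicate. For EGF + cetuximab against EGF the count was 1, with 0 when only the compared groups were fitted, 2 in DESeq2, 4 with the replicate block and 0 to 1 without 1 replicate. For 24 h against 4 h it was 7, with 3 in the compared groups alone, 17 with the block and 3 to 6 without 1 replicate. For differences between lines it was 14, with 40 with the block and 6 to 12 without 1 replicate.

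With the block, which takes the replicate numbers as pairs, CYR61 and CTGF also passed in MKN1 cells with EGF at 4 h (0.51 and 0.62), in MKN7 cells with afatinib at 4 h (0.22 and -0.71), and CYR61 in Hs746T cells with afatinib at 24 h (-0.53). No call of a member was lost under the block where it was fitted. In MKN1 cells at 24 h, where the numbers do not pair every library, it gave 7 members called with EGF instead of 4, 5 instead of 3 with cetuximab, 6 instead of 1 with EGF + cetuximab and 7 instead of 4 with afatinib. For the differences between lines at 24 h, which use these libraries, it gave 7 instead of 4 for afatinib in MKN7, 5 instead of 4 in NCI-N87, 4 instead of 1 in Hs746T cells, and 5 instead of 1 for EGF in Hs746T cells, and for EGF + cetuximab against EGF 2 instead of 0. Fitted alone with their controls, CYR61 (-0.93) and CTGF (-1.19) with cetuximab at 4 h in MKN1 cells missed the threshold. Scaling by library size alone gave 0.39 for CYR61 in MKN1 cells with EGF at 24 h, which missed the threshold, reversed CTGF there to -0.027, and gave 0.29 for CYR61 in MKN7 cells with afatinib at 4 h, which passed. It moved the median log2FC of all genes by 0.26 with afatinib in NCI-N87 cells and by -0.20 with EGF in MKN1 cells, both at 24 h, and the share of higher genes among all calls in many comparisons, for example from 34.5% to 65.1% with afatinib and from 64% to 33.2% with EGF in MKN1 cells at 4 h. Without a filter CYR61 in MKN7 cells with afatinib at 24 h missed the threshold (0.24).

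Without 1 replicate, log2FC of CYR61 in MKN1 cells ranged from 0.45 to 0.56 with EGF, from -1.17 to -0.82 with cetuximab and from -1.45 to -1.16 with afatinib at 4 h, and from 0.47 to 0.69, from -1.11 to -0.945 and (CTGF, cetuximab) from -1.56 to -1.26 at 24 h. CTGF at 4 h ranged from -1.39 to -1.11 with cetuximab and from -1.73 to -1.55 with afatinib. CYR61 ranged from 0.19 to 0.33 in MKN7 cells at 24 h, from -0.76 to -0.58 in NCI-N87 cells at 4 h and from -0.19 to 0.0721 in Hs746T cells at 4 h with afatinib, the last of which was reversed, without replicate 1.

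Counts of all genes called ranged over the settings from 430 to 3368 with EGF in MKN1 cells at 4 h (1351 in the fit reported), from 83 to 1487 with cetuximab (284) and from 219 to 2618 with afatinib (730), and at 24 h from 3542 to 10122 (7094), 262 to 6017 (2147) and 1554 to 8358 (5068). With afatinib at 4 h they ranged from 2301 to 7093 in MKN7 (4103), 1444 to 6290 in NCI-N87 (3465) and 0 to 3471 in Hs746T cells (0), and at 24 h from 0 to 133 in Hs746T cells (0). The cause was not tested. The smallest count of a member in any library was 20 (AJUBA, Hs746T).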
